A study of Mus musculus with 40 samples.

Results

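The genes described here are 8 genes that mark white fat cells (adipocytes), measured in jejunal RNA: Adipoq, Retn, Cfd, Lep, Fabp4, Plin1, Cidec and Lipe. Each was taken by its symbol, where a transcript cluster of the array carried that symbol alone, and the brightest such cluster stood for the gene. All 8 were found, among 36155 genes with such a cluster, and each had 1 cluster only. The jejunum is the middle segment of the small intestine, and the mesentery that carries its vessels holds white fat. The sample is a piece of gut wall, so that the signal of these genes was described over groups and over single mice as a measure of attached fat. In such a bulk sample, fewer fat cells and less RNA of a gene per fat cell cannot be told apart.

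Adipocytes store triglyceride in a single large lipid droplet and release fatty acids from it when energy is needed. The droplet is coated by perilipin 1 and enlarged by the CIDE protein encoded by Cidec, and its fat is broken down in sequence by a set of lipases, of which hormone-sensitive lipase, encoded by Lipe, acts on diglyceride. The same cells secrete hormones, called adipokines, such as adiponectin, resistin, leptin and adipsin. Enterocytes, the absorptive cells of the gut, also build and break down lipid droplets while they take up dietary fat.

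RNA came from 40 female mice aged 10 to 12 weeks, with 5 mice in each of 8 groups and 1 array per mouse. Knockout (KO) mice were Sftpd-/-, which lack surfactant protein D, a collectin of the innate immune system, and had been backcrossed for more than 10 generations onto C57BL/6N; wild-type (WT) mice were their Sftpd+/+ littermates. They were killed 3 or 7 days after a single intraperitoneal injection of doxorubicin, an anthracycline that damages dividing cells, at 20 mg/kg (Dox) or of an equal volume of isotonic saline (NaCl). The groups are KO-Dox3, KO-NaCl3, WT-Dox3, WT-NaCl3 and the same 4 at day 7, named by genotype, treatment and day. The deletion is present in all cells of the KO mice, and no batch or array date was given in the labels.

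Signals are on the log2 scale, on which a difference of 1 is a factor of 2. The 23 background probe sets averaged 3.45 and reached 6.99 at most, and a signal below 6.99 is called here not clearly above background. Each of 12 enterocyte markers was at 14.11 or higher on every array, which marks small intestine but not its segment. Fabp6, a bile acid binding protein typical of the ileum, ranged from 4.33 to 11.36, was above 6.99 on 11 of 40 arrays and had r = -0.50 with Adipoq over the 40 arrays (-0.46 with groups centred). Its part in the results was not tested. Lipe, Fabp4 and Cidec were above 6.99 on all 40 arrays, Cfd on 36, Retn on 35, Adipoq on 4, and Plin1 and Lep on none. Sftpd itself, the deleted gene, lay between 3.83 and 4.31 on all 40 arrays, KO and WT alike, so that it gives no check of the genotype labels here. Array medians ranged from 4.38 to 4.66, and any pair of arrays correlated at 0.9663 to 0.9948.

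The promoters of 7 of the 8 genes were found in RefSeq (GRCm38.p6), as 9 sequences, and were searched for motifs of fat cell and general factors. Those of Adipoq, Retn and Cfd are printed because these 3 genes, which lie on different chromosomes, followed each other most closely over the mice, and that of Lep because it held the rarest of the motifs that were found. Each runs 5′ to 3′ from 250 bases before the start to 50 bases after it. Capitals mark CCAAT on either strand in the Adipoq promoter and the C/EBP palindrome TTGCGCAA in the Lep promoter. The Adipoq promoter is chr16:23146286-23146585 on the plus strand, and those of Retn, Cfd and Lep, also on the plus strand, are chr8:3655520-3655819, chr10:79890603-79890902 and chr6:29059971-29060270.
Adipoq: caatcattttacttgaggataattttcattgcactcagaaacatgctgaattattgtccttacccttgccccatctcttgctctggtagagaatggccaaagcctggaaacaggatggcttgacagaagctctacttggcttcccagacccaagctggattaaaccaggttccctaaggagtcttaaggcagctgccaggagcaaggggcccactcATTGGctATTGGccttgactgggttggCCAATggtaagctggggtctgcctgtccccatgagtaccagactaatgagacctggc
Retn: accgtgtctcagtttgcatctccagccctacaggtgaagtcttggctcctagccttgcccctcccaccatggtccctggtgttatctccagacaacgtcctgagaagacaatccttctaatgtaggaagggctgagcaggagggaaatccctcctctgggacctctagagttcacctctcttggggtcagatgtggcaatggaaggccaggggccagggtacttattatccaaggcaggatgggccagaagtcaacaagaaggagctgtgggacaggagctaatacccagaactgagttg
Cfd: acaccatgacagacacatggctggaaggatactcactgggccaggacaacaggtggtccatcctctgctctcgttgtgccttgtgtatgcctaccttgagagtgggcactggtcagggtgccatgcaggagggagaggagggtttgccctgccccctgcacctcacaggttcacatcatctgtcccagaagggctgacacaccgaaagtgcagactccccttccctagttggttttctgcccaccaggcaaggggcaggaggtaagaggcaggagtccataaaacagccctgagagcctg
Lep: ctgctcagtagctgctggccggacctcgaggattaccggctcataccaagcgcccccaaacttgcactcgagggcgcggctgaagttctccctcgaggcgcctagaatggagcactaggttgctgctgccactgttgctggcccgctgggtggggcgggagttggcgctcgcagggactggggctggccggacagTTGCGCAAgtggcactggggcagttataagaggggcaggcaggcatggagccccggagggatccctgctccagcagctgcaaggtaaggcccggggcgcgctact

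Motifs were searched on both strands. CCAAT, the box bound by NF-Y and similar factors, was found in 37.4% of the 32851 RefSeq promoters. Among the promoters of the 7 genes, since Fabp4 had none to search, CCAAT was in that of Adipoq alone. Its matches begin at -34, -27 and -7 from the start. TTGCGCAA, a perfect site for the C/EBP factors that drive fat cell differentiation, was in 0.183% of all promoters and began at -55 in the Lep promoter. TATAAA (13.6% of promoters), the nuclear receptor half-site AGGTCA (16.3%) and its direct repeat with 1 base between the copies (0.0396%), which PPAR gamma binds as a pair with RXR, were in none of the 9 promoters of the 7 genes. These letters describe windows only, and whether any factor binds there was not measured.

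Of the secreted factors, Retn encodes resistin, an adipokine of mouse white fat, and its cluster lies at chr8:3655770-3660110 on GRCm38. It read 8.28, 8.13, 7.31, 6.44 and 7.77 in KO-Dox3 mice, against 10.11, 9.74, 9.70, 7.94 and 12.00 in KO-NaCl3 mice. It read 8.46, 7.15, 7.80, 8.63 and 8.57 in WT-Dox3 mice, against 12.47, 10.01, 9.52, 10.65 and 11.05 in WT-NaCl3 mice. All WT-Dox3 mice lay below all WT-NaCl3 mice, whereas in KO mice 1 saline mouse lay among the doxorubicin mice. The log2 change was -2.62 ± 0.77 (SE) in WT mice (limma, adjusted p = 0.0393) and -2.31 ± 0.77 in KO mice (adjusted p = 0.0512), and -2.46 ± 0.54 as the mean of both genotypes (adjusted p = 0.00114), which is 5.52-fold lower after doxorubicin. The call in WT mice was lost on leaving out any of 8 single mice, at most to an adjusted p of 0.142 without WT-NaCl3 mouse 14 (-2.19), and without KO-NaCl3 mouse 254 the change in KO mice passed the threshold (-2.80, adjusted p = 0.0204).

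At day 7 Retn read 7.03, 7.42, 7.99, 8.76 and 8.41 in KO-Dox7 mice, against 9.42, 10.17, 10.21, 10.85 and 6.49 in KO-NaCl7 mice. In WT mice the values were 9.79, 10.10, 6.78, 7.42 and 5.69 in WT-Dox7, against 9.31, 7.57, 6.21, 7.21 and 8.81 in WT-NaCl7. Both pairs of groups overlapped, and the spread within WT-Dox7 alone ran over more than 4 log2 units. The change was -1.51 ± 0.77 in KO mice (adjusted p = 0.435) and 0.13 ± 0.77 in WT mice (adjusted p = 0.988).

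Cfd encodes adipsin, the complement factor D that fat cells release, at chr10:79890853-79892656. It read 8.53, 7.82, 7.56, 6.46 and 7.84 in KO-Dox3 mice, against 8.91, 8.70, 8.46, 7.20 and 11.02 in KO-NaCl3 mice. It read 8.39, 7.69, 7.49, 8.74 and 8.20 in WT-Dox3 mice, against 12.36, 9.68, 8.91, 10.42 and 9.19 in WT-NaCl3 mice. The WT groups did not overlap and the KO groups did. The mean change of both genotypes was -1.61 ± 0.51 (3.06-fold lower, adjusted p = 0.0289), with -1.22 ± 0.72 in KO mice (adjusted p = 0.396) and -2.01 ± 0.72 in WT mice (adjusted p = 0.12). Leaving out KO-NaCl3 mouse 292 or WT-NaCl3 mouse 14, the brightest mice of their groups, ended the call for the mean (adjusted p = 0.0744 and 0.0784), and so did leaving out KO-Dox3 mouse 236 or WT-Dox3 mouse 192, the dimmest of theirs (0.0654 and 0.0525).

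Adipoq encodes adiponectin, the adipokine that raises insulin sensitivity, at chr16:23146536-23158028. Its signal was clearly above background on 4 of 40 arrays only, all of saline mice, so its differences may be understated and no fold is given. It read 5.53, 5.17, 5.08, 4.43 and 6.09 in KO-Dox3 mice, against 6.68, 6.52, 6.60, 5.13 and 7.41 in KO-NaCl3 mice. It read 5.89, 5.19, 5.15, 5.97 and 6.23 in WT-Dox3 mice, against 7.46, 6.48, 6.12, 7.09 and 6.63 in WT-NaCl3 mice. In both genotypes the groups overlapped by 1 saline mouse. The change was -1.14 ± 0.29 as the mean of both genotypes (adjusted p = 0.00583), -1.21 ± 0.42 in KO mice (adjusted p = 0.0626) and -1.07 ± 0.42 in WT mice (adjusted p = 0.166). Without KO-NaCl3 mouse 254, or without KO-Dox3 mouse 248, the change in KO mice passed the threshold (-1.54, adjusted p = 0.0143, and -1.42, adjusted p = 0.0355).

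Lep encodes leptin, the hormone that reports fat stores to the brain, at chr6:29060220-29073877. It stayed between 3.21 and 4.22 on all 40 arrays, near the mean of the background probe sets, so leptin RNA was not clearly above background on any array. Its change at day 3 of -0.29 ± 0.09 on the log2 scale nevertheless passed the threshold as the mean of both genotypes (adjusted p = 0.0313). The call was lost after a further quantile normalization (-0.25, adjusted p = 0.0798) and on leaving out any of 7 single mice, among them KO-NaCl3 mouse 292, which had the highest value of all (-0.24, adjusted p = 0.0818).

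Of the genes of fat handling, Fabp4 encodes the fatty acid binding protein of adipocytes, which is also known from macrophages and from capillary endothelium, at chr3:10204328-10208576. It read 8.34, 8.60, 8.42, 8.14 and 8.84 in KO-Dox3 mice, against 9.71, 9.26, 9.26, 8.31 and 10.98 in KO-NaCl3 mice. It read 8.89, 8.24, 8.28, 8.57 and 9.98 in WT-Dox3 mice, against 9.86, 8.63, 8.51, 9.31 and 10.48 in WT-NaCl3 mice. The groups overlapped in both genotypes, and the mean change of -0.80 ± 0.34 did not pass the threshold (adjusted p = 0.138).

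Plin1 encodes perilipin 1, the coat protein of the adipocyte droplet, at chr7:79721164-79732776 on the minus strand. It was below 6.99 on every array, with a range of 4.53 to 5.93, and so its differences may also be understated. The mean was 4.85 ± 0.18 in KO-Dox3 and 5.27 ± 0.40 in KO-NaCl3 mice, and 4.79 ± 0.24 in WT-Dox3 and 5.35 ± 0.33 in WT-NaCl3 mice (SD, n = 5 each). The mean change of both genotypes was -0.49 ± 0.13 (adjusted p = 0.00640), and neither genotype alone passed the threshold. In WT mice it did so without WT-Dox3 mouse 244 (adjusted p = 0.0482) or WT-NaCl3 mouse 44 (0.0426).

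Cidec encodes the protein that fuses small lipid droplets into large ones, at chr6:113424634-113435760 on the minus strand, and was above 6.99 on all 40 arrays. It read 9.92, 9.63, 9.81, 9.70 and 10.32 in KO-Dox3 mice, against 10.86, 10.36, 10.53, 11.37 and 11.50 in KO-NaCl3 mice. It read 10.43, 9.28, 9.53, 11.34 and 11.33 in WT-Dox3 mice, against 10.83, 10.95, 10.56, 10.74 and 10.16 in WT-NaCl3 mice. The KO groups did not overlap, while the WT-Dox3 mice lay on both sides of all WT-NaCl3 mice. The change was -1.05 ± 0.33 in KO mice (2.07-fold lower, adjusted p = 0.0397) and -0.27 ± 0.33 in WT mice (adjusted p = 0.801), and the difference between the genotypes was -0.78 ± 0.47 (adjusted p = 0.822). The call in KO mice was lost on leaving out any of 7 single mice, with adjusted p up to 0.118 without KO-NaCl3 mouse 254.

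At day 7 Cidec read 8.67, 9.96, 9.77, 9.75 and 9.87 in KO-Dox7 mice, against 11.09, 10.01, 10.34, 10.69 and 10.43 in KO-NaCl7 mice. It read 10.26, 10.85, 9.90, 9.11 and 9.29 in WT-Dox7 mice, against 10.97, 10.27, 10.28, 10.55 and 10.98 in WT-NaCl7 mice. The KO groups again did not overlap, as was the case for 1.68% of all clusters in this direction, and the WT groups did. The mean change of -0.82 ± 0.24 missed the threshold in the fit of all groups (adjusted p = 0.0600) and passed it under 6 other settings of the fit and without WT-Dox7 mouse 102 (-0.94, adjusted p = 0.0153). At day 3 the mean change of both genotypes was -0.66 ± 0.24 (adjusted p = 0.0614), and it passed when any 1 of 5 mice was left out, among them WT-Dox3 mice 232 and 244, the brightest of their group (-0.78 each).

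Lipe encodes hormone-sensitive lipase, at chr7:25379527-25398710 on the minus strand, and was above 6.99 on every array. It read 7.91, 7.77, 7.83, 7.26 and 8.05 in KO-Dox3 mice, against 8.60, 8.35, 8.73, 9.40 and 9.07 in KO-NaCl3 mice. It read 7.91, 7.90, 7.68, 8.27 and 8.35 in WT-Dox3 mice, against 8.83, 9.10, 8.75, 9.0 and 8.53 in WT-NaCl3 mice. No doxorubicin mouse reached the lowest saline mouse of its genotype. Lipe fell by 1.07 ± 0.20 on the log2 scale in KO mice (2.09-fold lower, adjusted p = 1.88e-04) and by 0.82 ± 0.20 in WT mice (1.77-fold lower, adjusted p = 0.00818).

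At day 7 the group means of Lipe lay the other way round. It read 8.85, 9.10, 9.38, 9.05 and 9.01 in KO-Dox7 mice, against 8.23, 8.67, 8.55, 9.13 and 8.75 in KO-NaCl7 mice. It read 9.36, 8.13, 8.63, 8.94 and 8.60 in WT-Dox7 mice, against 8.30, 7.87, 8.18, 8.08 and 8.59 in WT-NaCl7 mice. The groups overlapped in both genotypes, and the mean change of 0.47 ± 0.14 missed the threshold (adjusted p = 0.0659); without KO-NaCl7 mouse 272, WT-Dox7 mouse 102 or WT-NaCl7 mouse 296 it passed (0.53, 0.55 and 0.52, adjusted p of 0.0387, 0.0150 and 0.0447). The difference between the doxorubicin effects of day 7 and day 3 was itself tested and was 1.41 ± 0.20 (adjusted p = 7.08e-06). Lipe was also 1.01 ± 0.14 higher in Dox7 than in Dox3 mice (adjusted p = 1.51e-06), and it passed the threshold for both of these in every fit that left out 1 mouse.

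**Figure D1:**
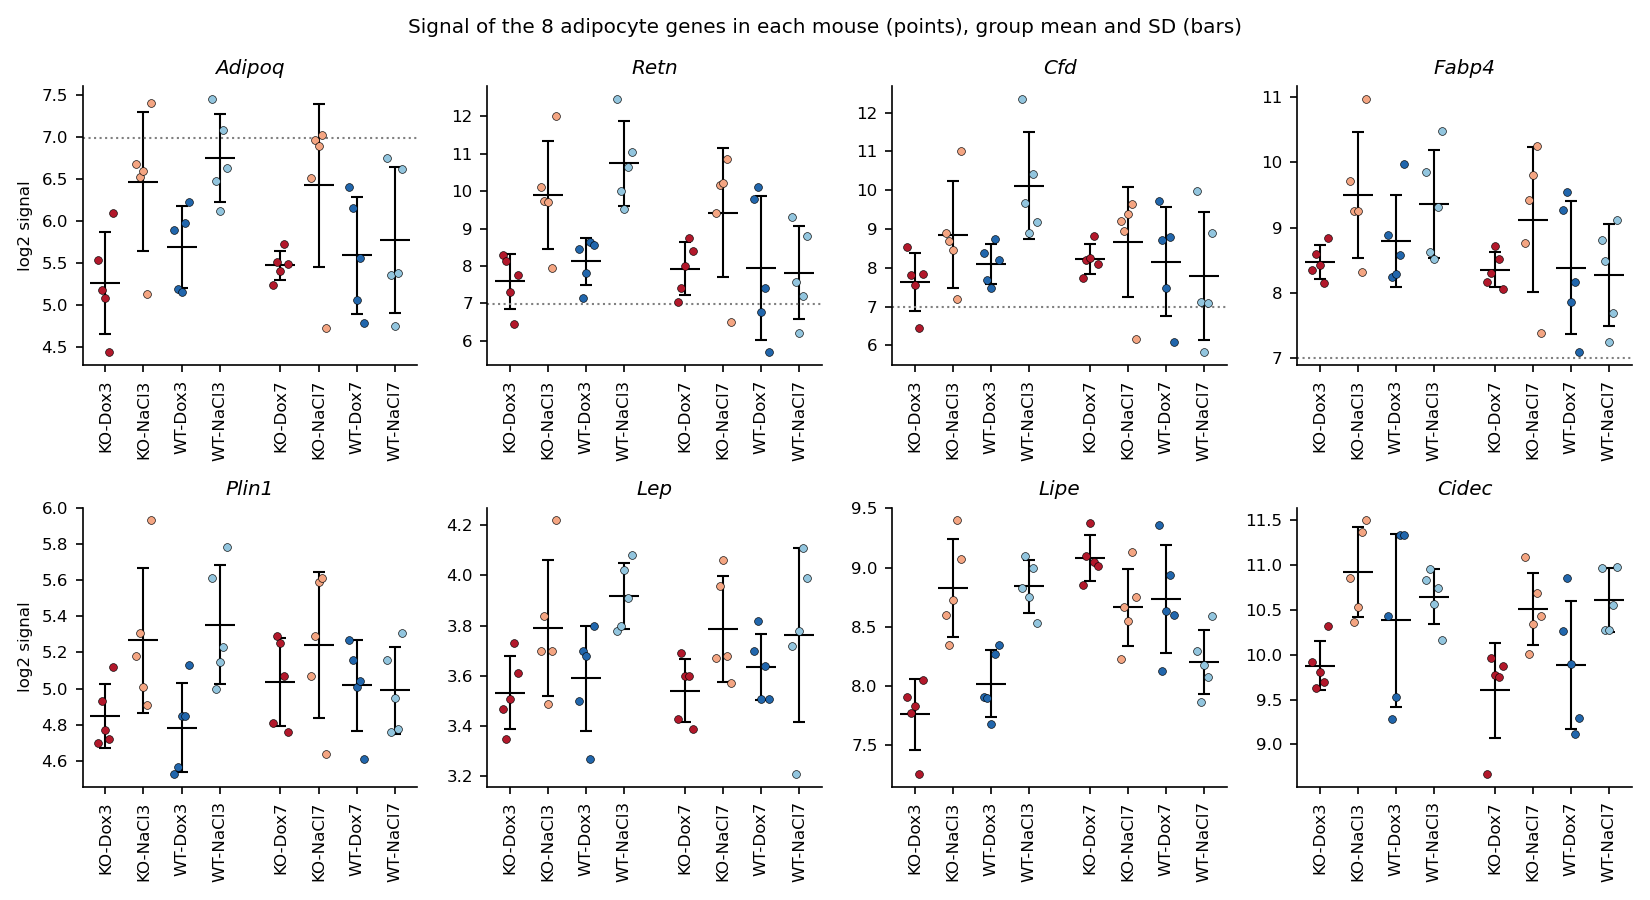
Each panel plots the log2 signal of 1 gene (vertical axis) in the 5 mice of each of the 8 groups (points, 1 per mouse), with the group mean and SD as bars and the highest background probe set, 6.99, as a dotted line where it falls in the range. Retn ran from 5.69 to 12.47 over the mice, Lep only from 3.21 to 4.22, and Lipe was lowest in both Dox3 groups and highest in KO-Dox7.

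Over both genotypes at day 3, 6 of the 8 genes fell after doxorubicin (Retn, Cfd, Adipoq, Lep, Plin1 and Lipe), 2 did not pass the threshold (Fabp4 and Cidec) and none rose. Of these 6, Plin1 and Lep were above 6.99 on no array and Adipoq on 4 of 40. The calls of Cfd and Lep were lost on leaving out certain single mice. Of all 65956 clusters, 5.83% fell in this comparison and 13.2% changed in either direction. The median change of the 8 genes was -0.87, and that of all genes was -0.01. All 8 genes had a negative change in KO mice and in WT mice alike. Adipoq, Retn, Cfd, Fabp4 and Plin1 varied together over the mice (r of 0.72 to 0.93), so their changes are not independent of each other. The 8 genes were also chosen with earlier results of these data known.

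Within each genotype at day 3 fewer genes passed. Lipe and Cidec fell in KO mice, where 3.68% of all clusters fell, and their groups did not overlap, as for 3.1% of all clusters in this direction. Lipe and Retn fell in WT mice, where 2.13% of all clusters fell, and Lipe, Retn and Cfd did not overlap there, against 1.87% of all clusters. The difference between the genotypes in the effect of doxorubicin was tested for each gene, and no gene passed (0% of all clusters, adjusted p of 0.822 or higher). None of the 8 had an unadjusted p under 0.05 for it in limma, and none passed without moderation of the variances.

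At day 7 no gene passed in KO mice (0.92% of all clusters), in WT mice (0.0182%) or as the mean of both (2.07%). Unadjusted limma p-values under 0.05 were found for Adipoq, Lipe and Cidec in KO mice and for Lipe and Cidec in WT mice, and none passed without moderation of the variances. The signs differed between the genotypes: 7 of 8 changes were negative in KO mice and 3 of 8 in WT mice. In WT mice the changes of Retn, Cfd, Fabp4 and Plin1 were positive but smaller than their SE. These 4 genes varied together over the mice, so their signs are not independent. The test of whether doxorubicin acted differently in KO than in WT mice at day 7 was passed by no gene (0% of all clusters, adjusted p of 0.892 or higher), and none had an unadjusted p under 0.05 in limma or passed without moderation. From day 3 to day 7 after doxorubicin only Lipe changed among the 8 (10.3% of all clusters changed), and it was also the only one to pass the test of doxorubicin by day (7.35%).

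**Figure D2:**
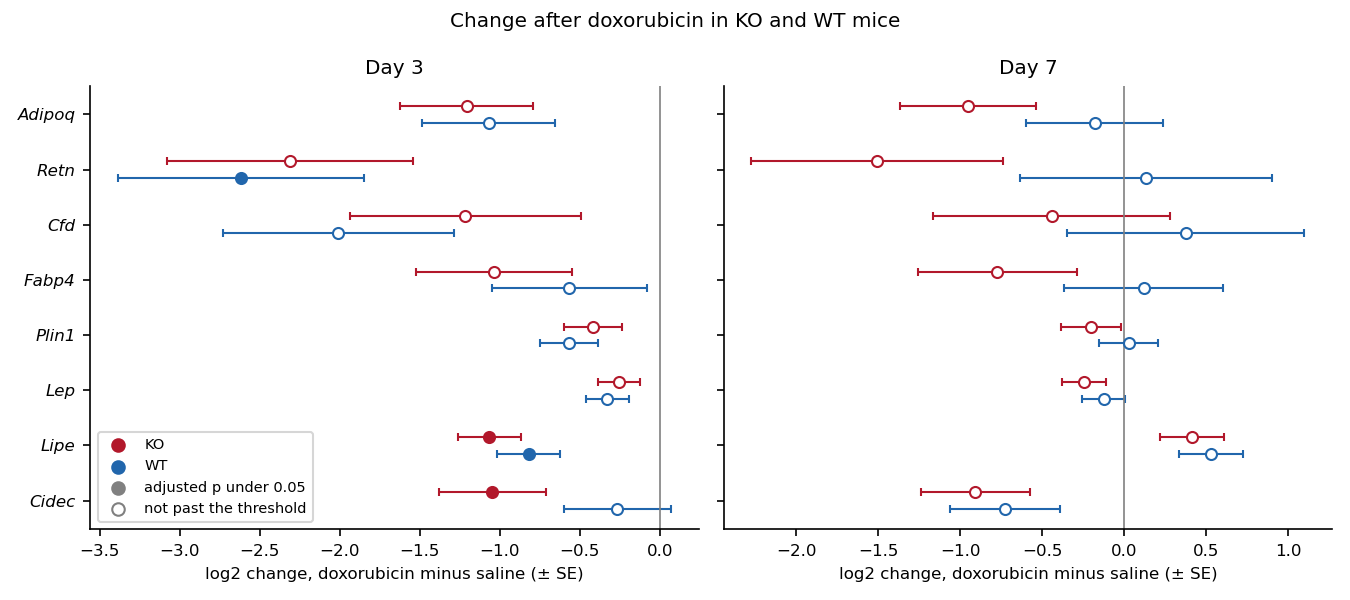
The log2 change after doxorubicin relative to saline (horizontal axis, ± SE from the limma fit) is drawn for each of the 8 genes in KO (red) and WT (blue) mice, at day 3 on the left and day 7 on the right, with filled points for an adjusted p under 0.05. All points lie left of 0 at day 3, while Lipe lies right of 0 in both genotypes at day 7.

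The loss of surfactant protein D was not accompanied by a called change in any of the 8 genes. No gene passed between KO-NaCl3 and WT-NaCl3 mice (0.0258% of all clusters), KO-NaCl7 and WT-NaCl7 mice (0.0773%), KO-Dox3 and WT-Dox3 mice (0.0106%), or KO-Dox7 and WT-Dox7 mice (0.00606%), nor in the mean of these (1.95%). None passed without moderation of the variances either. An unadjusted limma p under 0.05 was found only for KO-NaCl7 against WT-NaCl7, in Retn and Lipe. There Retn was 1.61 ± 0.77 higher in KO mice (adjusted p = 0.287) and Lipe 0.46 ± 0.20 higher (adjusted p = 0.237). These misses do not show that the genotypes were alike, since the SE of Retn alone was 0.77.

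Between the saline groups of day 7 and day 3 no cluster of the array passed the test (0%). The change had a negative sign for all 8 genes, with unadjusted limma p-values under 0.05 for Retn, Lipe, Cfd and Fabp4 and none past the threshold with or without moderation. Retn was -1.69 ± 0.54 in NaCl7 relative to NaCl3 mice (adjusted p = 0.564) and Cfd -1.26 ± 0.51 (adjusted p = 0.649). The WT-NaCl7 mean of Retn, 7.82 ± 1.25 (SD), was below that of WT-Dox3, 8.12 ± 0.64.

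The mean of the 8 log2 signals on each array served as an adipocyte score, as a description with no test. It takes in Plin1 and Lep, which were below 6.99 on every array, and Lipe and Cidec, which followed Adipoq loosely. Its ranks are therefore not a measure of fat content alone. The score was 7.08, 6.93, 6.79, 6.36 and 7.20 in KO-Dox3 mice, against 7.97, 7.76, 7.72, 7.25 and 9.02 in KO-NaCl3 mice. It was 7.25, 6.72, 6.81, 7.46 and 7.70 in WT-Dox3 mice, against 8.90, 7.96, 7.69, 8.29 and 8.24 in WT-NaCl3 mice. At day 3 the KO groups were apart by the step from 7.20 in the highest Dox mouse to 7.25 in the lowest saline mouse, and the WT groups overlapped by 1 mouse.

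At day 7 the score was 6.74, 7.18, 7.30, 7.41 and 7.14 in KO-Dox7 mice, against 7.74, 7.93, 8.10, 8.36 and 6.52 in KO-NaCl7 mice. It was 7.97, 7.81, 6.78, 7.08 and 6.20 in WT-Dox7 mice, against 7.88, 6.83, 6.40, 6.86 and 7.79 in WT-NaCl7 mice. Mouse 42295 of KO-NaCl7 lay below every KO-Dox7 mouse, and the WT groups spanned nearly the same range. In order of their means the groups were WT-NaCl3 (8.22), KO-NaCl3 (7.94), KO-NaCl7 (7.73), WT-Dox3 (7.19), WT-Dox7 (7.17), KO-Dox7 and WT-NaCl7 (7.15 each) and KO-Dox3 (6.87). No group differed from its neighbour in this order by more than the pooled SD within groups of 0.55.

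In order of their means, the groups for Retn were WT-NaCl3 (10.74), KO-NaCl3 (9.90), KO-NaCl7 (9.43), WT-Dox3 (8.12), WT-Dox7 (7.96), KO-Dox7 (7.92), WT-NaCl7 (7.82) and KO-Dox3 (7.59), and only KO-NaCl7 and WT-Dox3 were neighbours that differed by more than the pooled SD of 1.28. For Lipe the order was KO-Dox7 (9.08), WT-NaCl3 (8.84), KO-NaCl3 (8.83), WT-Dox7 (8.73), KO-NaCl7 (8.67), WT-NaCl7 (8.20), WT-Dox3 (8.02) and KO-Dox3 (7.76), with the only step over the pooled SD of 0.32 between KO-NaCl7 and WT-NaCl7. For Cfd only WT-NaCl3 (10.11) stood above its neighbour, KO-NaCl3 (8.86), by more than the pooled SD of 1.20, and for Adipoq, Fabp4 and Cidec no neighbours differed by more than theirs.

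Single mice moved across several genes at once. Mouse 292 had the highest value of KO-NaCl3 in 7 of the 8 genes, all but Lipe. Mouse 254 of the same group had the lowest value in Adipoq, Retn, Plin1, Cfd and Fabp4 and yet the highest in Lipe. In KO-NaCl7, mouse 42295 was lowest in 6 genes and mouse 272 highest in 6, and in WT-Dox7 mouse 42263 was lowest in 5. The shares of variance that lay between groups ranged from 28.8% for Fabp4 to 69.8% for Lipe, with 48.0% for Retn and 40.6% for Adipoq, so that for every gene except Lipe more of the variance lay between mice of the same group.

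Across the 40 arrays, 5 of the genes, Adipoq, Retn, Cfd, Fabp4 and Plin1, correlated with each other at Pearson r of 0.72 to 0.93 (10 pairs, median 0.83). With each group centred on its mean they still did so, at 0.66 to 0.91 (median 0.84). The closest pair was Adipoq and Retn, with r = 0.93 and Spearman rho = 0.93 (permutation p of 1e-05 each, the smallest that 100000 resamples can give; 2.8e-05 adjusted over 28 pairs). Without the 2 mice farthest from the median of Adipoq, r was again 0.93.

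Lipe, Cidec and Lep stood apart from these 5. Pairs with Lipe had r of 0.17 to 0.46 (7 pairs, median 0.35), which became 0.02 to 0.38 with groups centred. Pairs with Cidec had r of 0.17 to 0.58 (0.09 to 0.44 centred), and pairs with Lep 0.19 to 0.63 (0.02 to 0.53 centred). Of the 28 pairs, 25 passed an adjusted permutation p of 0.05 as measured and 14 with each group centred on its mean. Lipe and Cidec correlated with each other at r = 0.17 (adjusted permutation p = 0.291), and at 0.38 with groups centred (0.0668).

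**Figure D3:**
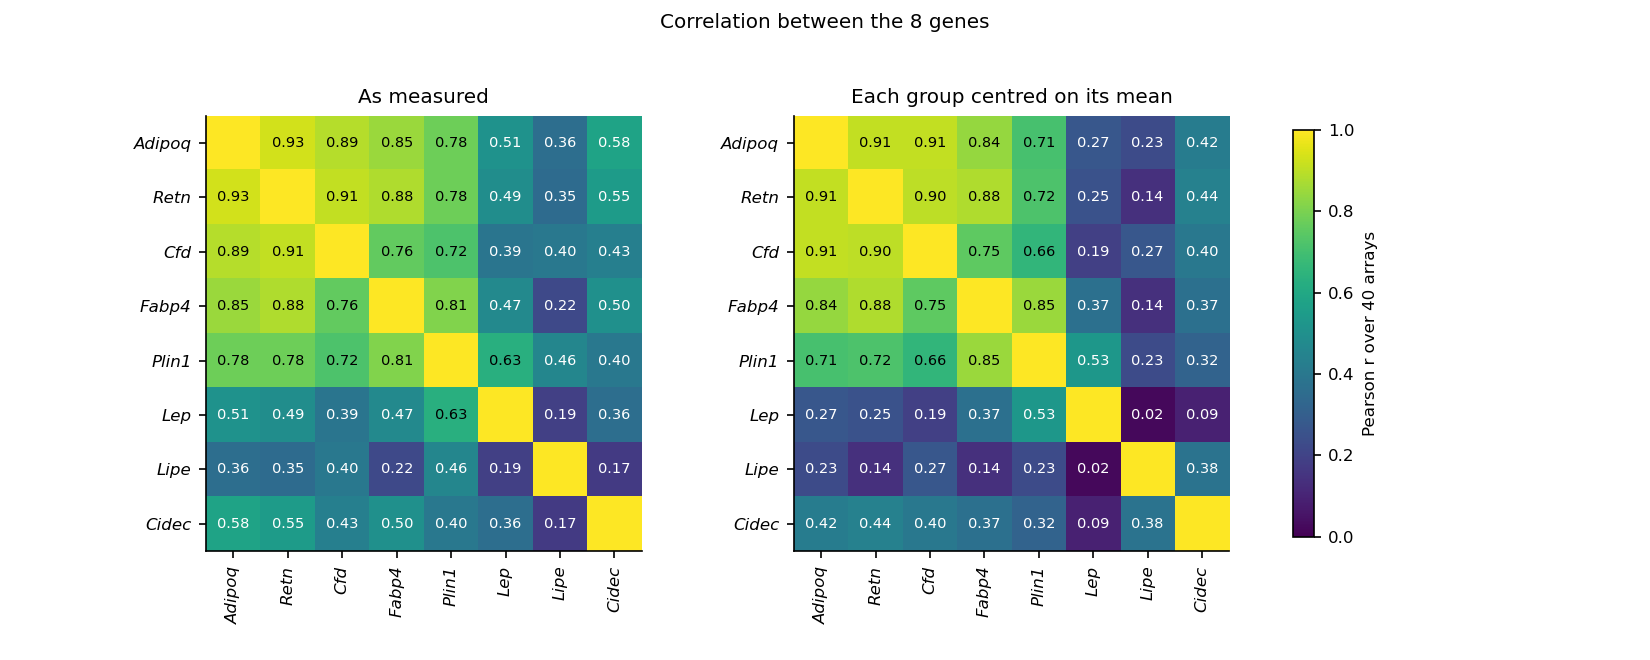
The color and the printed number give Pearson r over 40 arrays for each pair of the 8 genes, as measured on the left and with each group centred on its mean on the right. The block of Adipoq, Retn, Cfd, Fabp4 and Plin1 holds r of 0.72 to 0.93 on the left and 0.66 to 0.91 on the right, above all pairs with Lipe and Cidec.

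**Figure D4:**
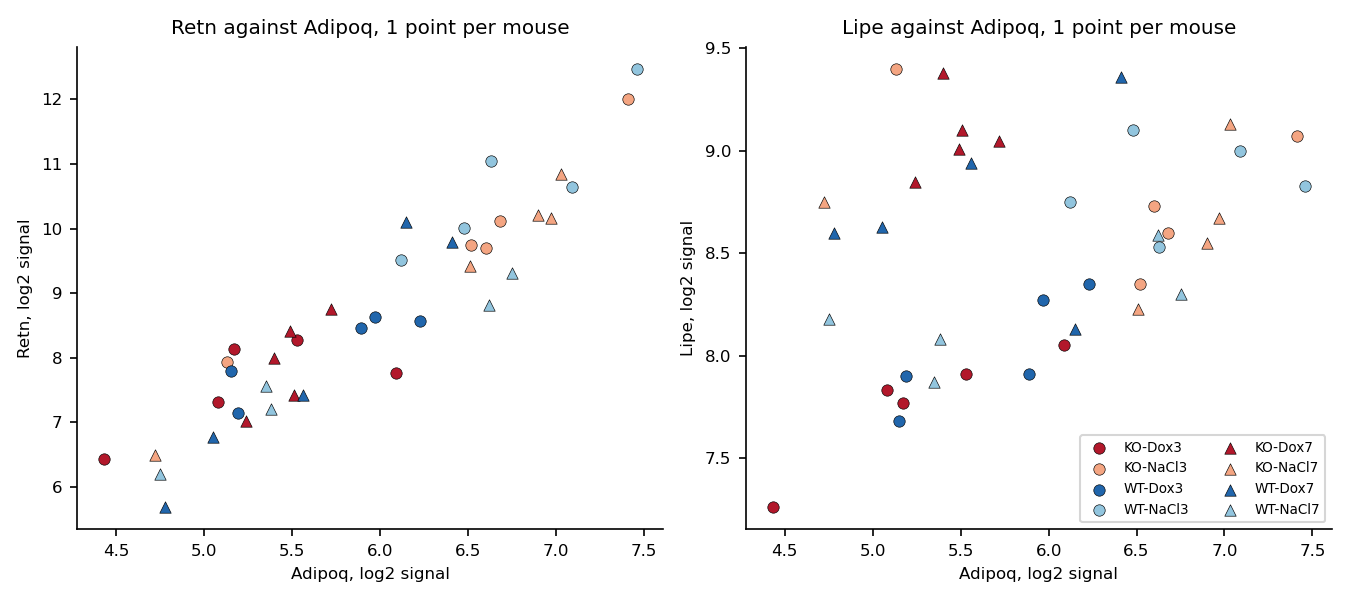
The log2 signal of Retn (left) and of Lipe (right) is plotted against that of Adipoq for the 40 mice, with circles for day 3, triangles for day 7, and color by genotype and treatment. Retn follows Adipoq over all groups (r = 0.93), whereas Lipe does so loosely (r = 0.36) and the KO-Dox7 mice have high Lipe at low Adipoq.

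The genes whose pattern was most like the adipocyte score over the 40 arrays were, after the 8 themselves, Car3 (r = 0.92), Trf (0.90), Cyp2e1 (0.89), Car5b (0.88), Abcd2 (0.88), Lpl (0.87), Thrsp (0.86), Pcx (0.86), Adhfe1 (0.86) and Tshr (0.85). Fasn, Slc36a2, Mrap, Scd1 and A530016L24Rik followed, at 0.84 to 0.81. Of these genes Abcd2, Adhfe1, Tshr, Slc36a2, Mrap and A530016L24Rik were above 6.99 on no array. In all, 27 of 36147 genes had r over 0.7 with the score, and 16 did with groups centred. Among the lowest r were those of Gm6211 (-0.67), Ddah1 (-0.63), Gm15762 (-0.61) and Grem1 (-0.59).

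Car3 encodes carbonic anhydrase 3, an enzyme abundant in mouse white fat and in muscle, and it was above 6.99 on all 40 arrays. It averaged 10.14 ± 1.36 in KO-Dox3 and 12.37 ± 1.57 in KO-NaCl3 mice, and 10.84 ± 0.55 in WT-Dox3 and 12.61 ± 0.77 in WT-NaCl3 mice (SD, n = 5 each). It ran from 7.00 to 14.82 over the mice, and with groups centred it still had r = 0.92 with the score. Its mean change at day 3 was -2.0 ± 0.66 (adjusted p = 0.0367).

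Of 27 measured genes of a list of other adipocyte genes, 13 fell at day 3 over both genotypes, 2 rose and 12 did not pass, with a median change of -0.34. In this comparison 5.83% of all clusters fell and 13.2% changed in either direction. These shares also apply to the day 3 counts of the lists below. After Car3, the falls of over 1 log2 unit were in genes of fatty acid synthesis, a pathway that enterocytes and fat cells both use. The log2 change was -5.38 ± 0.59 for Scd1, the desaturase that makes oleate (adjusted p = 1.63e-08), -2.62 ± 0.39 for Thrsp, a lipogenic factor (4.42e-06), and -1.49 ± 0.30 for Fasn, the fatty acid synthase (3.99e-04). Smaller falls were those of Slc2a4, the insulin-responsive glucose transporter (-0.56 ± 0.11), Mrap (-0.54 ± 0.13), Plin4 (-0.52 ± 0.12) and Adrb3, the beta-3 adrenergic receptor (-0.43 ± 0.10). Sncg rose by 0.54 ± 0.11 (adjusted p = 2.32e-04) and Agt by 0.30 ± 0.09. Slc2a4, Mrap, Plin4, Adrb3 and Agt were above 6.99 on no array, so their changes lie near background and may be understated. Thrsp was above 6.99 on 14 of 40 arrays and on none of KO-Dox3 or WT-Dox3, so its fall may be understated too.

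At day 7, 4 of these 27 genes fell and 1 rose, where 2.07% of all clusters changed in either direction. Among those that fell were Aqp7, a glycerol channel known from fat cells (-1.84 ± 0.26, adjusted p = 9.61e-05), and Scd1 (-2.54 ± 0.59, 0.0133). Pck1, an enzyme of glucose and glycerol synthesis, rose by 2.14 ± 0.37 (7.31e-04). Aqp7 was above 6.99 on all 40 arrays and had r = 0.42 with Adipoq (0.32 with groups centred). Adipoq itself did not pass at day 7 (-0.57 ± 0.29, adjusted p = 0.411). Of 19 genes of triglyceride storage and lipolysis, 5 fell at day 3 (Agpat2, Dgat1, Acsl1, Cideb and Pnpla2, with changes of -0.68 to -0.51), 2 rose (Dgat2, 0.98, and Abhd5, 0.26) and 12 did not pass, with a median of 0.00. Pnpla2 encodes the lipase that acts just before hormone-sensitive lipase. At day 7 only Mgll, the monoglyceride lipase, fell (-0.39 ± 0.10, adjusted p = 0.0213).

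Of 10 receptors of adipokines and lipolytic hormones, 3 fell at day 3, which were both adiponectin receptors, Adipor2 (-0.87 ± 0.14) and Adipor1 (-0.18 ± 0.05), and the insulin receptor Insr (-0.64 ± 0.12). As many, 3 of 10, rose, among them Cdh13 (0.26 ± 0.08), which encodes a cadherin that binds adiponectin, and Npr1 (0.21 ± 0.05), the receptor of atrial natriuretic peptide, and 4 did not pass. Of 13 genes related in sequence to the 8, Retnla, a resistin-like gene of macrophages and fat in mice, fell (-0.85 ± 0.22, adjusted p = 0.00517) and Retnlg, known from mouse neutrophils, rose (1.73 ± 0.42, adjusted p = 0.0033). C1qtnf3 and Cideb also fell and the other 9 did not pass. Short array probes may cross-detect such relatives, and this was not tested. Cdh13, Npr1, Retnla and C1qtnf3 were above 6.99 on no array, so their changes may be understated.

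Adipoq was set against the lists gene by gene, as a description over the same 40 arrays. Among other adipocyte genes 14 of 27 had r over 0.5 with Adipoq (median 0.52), against 0.647% of all 36154 genes (median -0.02). With groups centred it was 10 of 27 (median 0.33) and 0.232% of all genes. The leading ones were Car3 (0.90), Thrsp (0.84), Lpl (0.83), Scd1 (0.81), Fasn (0.81), Rbp4 (0.79), Mrap (0.77), Tusc5 (0.75), Klb (0.73) and Adrb3 (0.69). Of markers of adipocyte progenitors (7 genes), mesothelium (10), pancreatic acini (12), lymph node (9), endothelium (7), lymphatic endothelium (6), macrophages (7) and enterocytes (12), none had r over 0.5 with Adipoq. Cox7a1 (0.56), 1 of 8 brown fat markers, did so and is also expressed in muscle, as did Myl9 (0.50), 1 of 11 smooth muscle markers. Of 19 triglyceride genes Acsl1 (0.62) and Mgll (0.55) did, and of the 13 relatives Retnla (0.58). The pancreatic markers except Clps and the mesothelial ones except Upk1b and C3 were above 6.99 on no array. So were Mrap, Tusc5, Klb and Adrb3. The enterocyte markers Fabp2 (19.67 to 19.91), Anpep (19.69 to 19.88) and Apoa1 (18.93 to 19.14) hardly varied. Genes of low signal or little range can miss an r over 0.5. Its absence therefore does not show that a tissue varied apart from Adipoq.

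**Figure D5:**
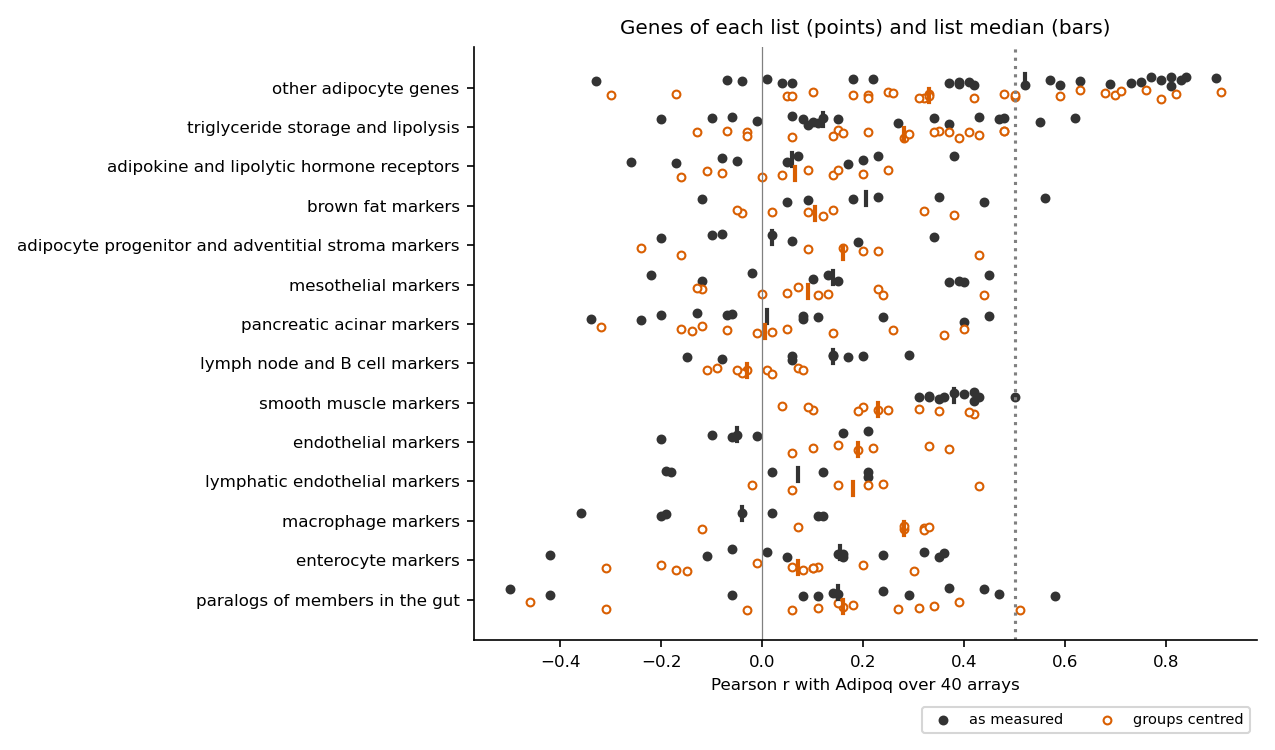
Each point is the Pearson r of 1 gene with Adipoq over 40 arrays (horizontal axis), by marker list (rows), as measured (black) and with groups centred (orange), with a bar at the list median and a dotted line at 0.5. Other adipocyte genes reach 0.90 with a median of 0.52, and the smooth muscle list lies together around its median of 0.38.

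Other cell types moved with doxorubicin too, and their part in the falls of the 8 genes was not tested. Of 11 smooth muscle markers 7 fell at day 3 and none rose, with a median change of -0.84, close to the -0.87 of the 8 adipocyte genes. Their mean signal per array was 10.54 to 11.20 in KO-Dox3, against 11.38 to 12.44 in KO-NaCl3 mice, and 10.76 to 11.37 in WT-Dox3, against 11.19 to 11.89 in WT-NaCl3 mice. Their median r with Adipoq was 0.38 as measured and 0.23 with groups centred. All 11 were lower at day 3 in mean change, led by Myl9 (-1.52), Synm (-1.33) and Myh11 (-1.24), which belong to the contractile apparatus.

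Of 7 macrophage markers 5 rose at day 3, led by Cd68 (1.53 ± 0.25), with a list mean per array of 9.10 to 9.72 in KO-Dox3, against 7.67 to 9.08 in KO-NaCl3 mice, and 9.21 to 10.24 in WT-Dox3, against 8.70 to 9.23 in WT-NaCl3 mice. Of 7 endothelial markers 4 rose and of 6 lymphatic endothelial markers 3 rose. The mesothelium covers the outside of the gut and its mesentery, and of its 10 markers 3 fell (Upk3b, Lrrn4 and Nkain4) and C3 rose, with list means per array of 5.26 to 5.41 in KO-Dox3 and 5.27 to 5.49 in KO-NaCl3 mice, and of 5.32 to 5.67 in WT-Dox3 and 5.23 to 5.41 in WT-NaCl3 mice. The list averaged 5.32 in KO-Dox3 and 5.43 in KO-NaCl3 mice, and 5.44 in WT-Dox3 and 5.33 in WT-NaCl3 mice, so that the signs were opposite and the ranges overlapped in both genotypes. Of the mesothelial markers only C3 (all 40 arrays) and Upk1b (11 arrays) were above 6.99 on any array. The falls of Upk3b, Lrrn4 and Nkain4 thus lie near background, and the list means are a poor measure of mesothelium. Enterocyte markers changed little as a list (median -0.10), although Lct, which encodes lactase, fell (-1.19 ± 0.23), as did Vil1 (-0.47 ± 0.09), the gene of a microvillus protein. Fabp2 (19.67 to 19.91), Anpep (19.69 to 19.88) and Apoa1 (18.93 to 19.14) were very bright and hardly varied. Whether such bright signals can show a change was not tested.

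Because Lipe and Cidec followed Adipoq loosely, they were set against the same lists and against all genes, a choice made after their values were seen. No other adipocyte gene had r over 0.5 with Lipe (0 of 27, median 0.17), and 1 of 27 with groups centred (median 0.02), whereas 3 of 12 enterocyte markers did as measured and 6 of 12 with groups centred (medians 0.29 and 0.48). Lipe also had r over 0.5 with 3 of 10 receptors as measured and none centred, and with 4 of 19 triglyceride genes as measured and 5 of 19 centred. Over all 36154 genes it was 1884 as measured and 1178 centred (medians -0.04 and -0.05). The genes most like Lipe were Pdzd3 (r = 0.89, 0.75 with groups centred), Soat2 (0.89, 0.83), Gucd1 (0.89, 0.77), Zfyve1 (0.87, 0.77) and Clic5 (0.87, 0.68). Soat2 encodes the enzyme that esterifies cholesterol in enterocytes, and Clic5 a protein known from microvilli.

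Cidec had r over 0.5 with 6 of 27 other adipocyte genes as measured and with 0 of 27 with groups centred (medians 0.41 and 0.18). It did so with 3 of 12 enterocyte markers as measured and 4 of 12 centred (medians 0.16 and 0.12). Its median was thus higher with the adipocyte list in both cases, and the share of genes with r over 0.5 was higher with the enterocyte list. Of 19 triglyceride genes 4 did as measured and 3 centred, of 36154 genes in all 441 and 419, and of the 10 receptors none. The genes most like it were Ceacam18 (r = 0.85, 0.81 with groups centred), Lgals3 (0.85, 0.76), Bmp8a (0.80, 0.75), Tmem43 (0.80, 0.75) and Serpinb1a (0.79, 0.70). None of these 5, nor of the 5 most like Lipe, was on the list of adipocyte genes.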

How the data were processed

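Total RNA of the jejunum, extracted with TRIzol, was hybridized to Affymetrix Mouse Transcriptome Array 1.0, 1 array per mouse. The authors deposited log2 signals that were already background-corrected and normalized; the submitters' notes name RMA in the Affymetrix software, the study's methods name normexp and quantile normalization in limma, and which of these made the table is not stated. Normalization across arrays can shrink a change shared by many genes. Depth does not apply to arrays; the number of arrays limits the precision. The authors' own fold changes and p-values were not used. Their tables gave gene symbols, descriptions and positions. Their average signals of KO-NaCl3 and KO-Dox3 served only to check that the clusters matched (r of 0.9995 and 0.9996 with the group means here).

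Of 72688 probe sets, 6732 controls were left out and 65956 transcript clusters were tested in limma 3.58.1 (R 4.3.3) with 8 group means, 16 comparisons, moderated variances and Benjamini-Hochberg adjustment over all clusters (threshold 0.05), checked on simulated data. Correlations used 100000 permutations. The 8 genes and the lists were chosen with earlier results of these data known. Named genes were the 8, the 15 most and 5 least correlated with their mean, and genes of 14 lists, of whose 157 genes 152 were measured (some of these are not reported here); the genes most like Lipe and Cidec were chosen after their values were seen. Alternatives changed the samples in the fit, array weights, scaling, filters and the variance model, or left out mice.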

Additional observations from a re-analysis of the deposited data

Results flagged for a closer look

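In KO-NaCl7, mouse 42295 lay far below the other 4 mice in Adipoq (4.72, against 6.51 to 7.03) and in Cfd (6.16, against 8.95 to 9.65). In KO-Dox7, mouse 116 lay far below the others in Cidec (8.67, against 9.75 to 9.96). These were the 3 single arrays that stood apart in 72 tests of a group of 5, 64 of them for the 8 genes and the rest for their mean, and chance alone sets apart about 1 in 20.

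The effect of doxorubicin on Lipe differed between the days by 1.41 on the log2 scale (day 7 minus day 3, mean of both genotypes, adjusted p = 7.08e-06 in limma). Within KO mice the change was -1.07 at day 3 and 0.41 at day 7, and every Dox mouse lay on the lower side of its saline mean at day 3 and on the upper side at day 7. The difference within KO mice alone was not tested.

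Mouse 42295 was 1 of 4 mice with a number of 5 digits in the labels, all at day 7, and what these numbers stand for is not given. Leaving all 4 out, a choice made after the data were seen, changed none of the day 7 counts of genes past the threshold.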

How the results depend on the processing

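The number of the 8 genes past the threshold at day 3, 2 in KO mice, became 1 without moderation of the variances, 1 with each array centred on its median, 4 with array weights, 4 with clusters above the median brightness only (7 of the genes tested), 4 with clusters of 1 symbol only, and 1 without the 2 arrays of the highest score (an alternative chosen after the data were seen). Retn also passed in KO mice when only the groups compared were fitted (-2.31, limma adjusted p = 0.0481). In WT mice, 2 became 1 without moderation and 1 without those 2 arrays, and 3 after a further quantile normalization, with bright clusters only and with clusters of 1 symbol only. The 6 genes of the mean at day 3 became 8 with array weights, 7 with clusters of 1 symbol only and 4 without those 2 arrays, and the count was 6 in the other settings of the fit. At day 7, 0 as the mean of both genotypes became 1 when only the groups compared were fitted, 1 after a further quantile normalization, 1 with arrays centred, and 2 with array weights, with bright clusters only and with clusters of 1 symbol only. Of 28 pairs of genes, 14 in place of 25 passed with groups centred. No called difference reversed, and of 3142 differences not called in either setting 122 had the opposite sign.

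Leaving out 1 mouse at a time gave 4 to 7 genes for the mean of both genotypes at day 3 (6 with all mice), 1 to 3 in KO mice, 1 to 3 in WT mice and 0 to 2 for the mean at day 7. The counts of the other comparisons did not change. The difference in score at day 3 ranged from -1.24 to -0.80 in KO mice and from -1.16 to -0.86 in WT mice, and at day 7 from -0.88 to -0.42 and from -0.18 to 0.26. Between KO and WT mice it ranged from -0.54 to -0.10 (saline, day 3), 0.39 to 0.88 (saline, day 7), -0.43 to -0.18 (Dox, day 3) and -0.26 to 0.18 (Dox, day 7). The filters changed the adjustment by testing fewer clusters; for the other settings the cause was not tested. No paired analysis was possible because each mouse number occurs in a single group. Signals near background limit Adipoq, Plin1 and Lep.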

Other observations

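Among the genes that ran against the adipocyte score, Ddah1, which encodes an enzyme that degrades methylated arginines, rose by 3.35 ± 0.27 on the log2 scale after doxorubicin at day 3 and by 2.17 ± 0.27 at day 7 as the mean of both genotypes (limma, adjusted p = 2.08e-11 and 1.56e-05). Grem1, a secreted BMP antagonist of gut stroma, rose by 1.82 ± 0.16 at day 3 and 0.67 ± 0.16 at day 7 (adjusted p = 2.57e-10 and 0.0207). Its correlation with the score of -0.59 became -0.13 with groups centred, and that of Ddah1, -0.63, became -0.46. Both correlations are over the same 40 arrays.

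Of 8 brown fat markers 2 fell at day 3, where 5.83% of all clusters fell. These were Cox7a1 (-1.70 ± 0.25) and Ppargc1a (-1.35 ± 0.17), a coactivator of mitochondrial genes that many tissues express. The other 6 did not pass and were above 6.99 on no array, so they are a poor measure of brown fat. Of 7 markers of adipocyte progenitors and adventitial stroma, Anxa3 (1.72 ± 0.25) and Pdgfrb (0.68 ± 0.16) rose and Cd55 (-1.20 ± 0.34) and Dpp4 (-0.54 ± 0.12), which enterocytes also express, fell. At day 7 Cd55 fell again (-2.57 ± 0.34, adjusted p = 2.52e-05). Of 12 pancreatic acinar markers 2 rose and none fell at day 3, where 13.2% of all clusters changed in either direction. At day 7 Clps, which encodes colipase, fell (-3.58 ± 0.65, adjusted p = 0.00132) and Cela1, an elastase, rose (0.26 ± 0.07, adjusted p = 0.0269). There 2.07% of all clusters changed. Clps was above 6.99 on all 40 arrays and the other markers of this list, Cela1 among them, on none. The list thus gives no clear measure of pancreatic tissue. Of 9 lymph node and B cell markers Cxcl13 alone passed at day 3 (2.61 ± 0.75).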
